A study of Mus musculus with 6 samples.

Results

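The clustered protocadherins are described here as measured by RNA-seq of the mouse hippocampus. The members were taken by symbol, as every gene whose name is Pcdha, Pcdhac, Pcdhb, Pcdhga, Pcdhgb or Pcdhgc followed by a number, which gave 58 of the 31838 genes in the table. They comprised 14 alpha genes (12 variable isoforms with Pcdhac1 and Pcdhac2), 22 beta genes and 22 gamma genes (12 of the A type, 7 of the B type and the C-type isoforms Pcdhgc3, Pcdhgc4 and Pcdhgc5). The study compared 2 groups of wild-type C57BL/6 mice aged 4 months: one received corn oil, the control, and the other butyl benzyl phthalate (BBP), used to soften plastics, at a dose of 50 mg/kg/day. From the hippocampus of each group 3 libraries of polyadenylated RNA were made, and they are referred to by group and replicate number. Cognitive impairment is the subject that the series title names beside BBP. Whether the libraries of a group are separate animals is not stated in the labels, and p-values therefore cover only the spread between these libraries, which may be technical.

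Clustered protocadherins are cadherin-like adhesion proteins of the neuronal surface. In the alpha and gamma clusters each variable first exon has its own promoter and is spliced to a set of constant exons that all isoforms of the cluster share, while beta genes are mostly single-exon genes with no constant part. Individual neurons switch on different combinations of variable isoforms through promoter choice that involves DNA methylation, CTCF and cohesin, and matching combinations are recognised between cell surfaces, which underlies neurite self-avoidance. C-type isoforms are chosen less randomly and are expressed broadly within given neuron types.

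All members lay in 1 stretch of chromosome 18 on the plus strand (mm10), with the alpha cluster from 36930184 to 37187661, the beta cluster from 37264938 to 37524479 and the gamma cluster from 37661793 to 37841873. In the GENCODE M21 annotation, whose coordinates were identical for 56 of the 58 members, the alpha genes shared a median of 53.4% of their exonic bases with another member (48.6 to 54.9%) and the gamma genes a median of 44.9% (38.3 to 66.8%). Of the beta genes, 18 of 22 had a single exon, and only Pcdhb21 (9.67%) and Pcdhb22 (6.88%) shared bases with another member, namely with each other. The sources used here do not give how reads in shared exons were divided between isoforms, and the values of single alpha and gamma isoforms are uncertain in a way that those of beta genes are not. Strand-aware counting is not stated either. Both ENSMUSG00000007440 (start 37005203) and ENSMUSG00000102206 (start 37010712) carried the symbol Pcdha11, and in RefSeq (GRCm38.p6) the gene at 37005320 is Pcdha10 and the gene at 37010858 is Pcdha11. The table's symbols are kept here with the gene ID.

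The deposited estimated counts summed to between 62477604 and 68422361 per library, of which the members took 57614 to 64181, or 0.0918 to 0.0990%. Levels are given as FPKM, a fragment count scaled to transcript length and library depth, which can be compared between genes. Over all 20428 genes tested with edgeR's quasi-likelihood test, 0 (0%) passed an adjusted p of 0.05, with a smallest adjusted p of 0.953, 685 (3.35%) had an unadjusted p under 0.05, and DESeq2 called 4 of 20418 genes (0.0196%). The libraries differed in their regional markers. Relative to the corn oil mean, BBP library 1 had a median log2 difference of 1.74 over 13 striatal markers and 1.92 over 8 isocortical markers, against -1.03 over 8 dentate granule cell markers, -0.49 over 6 CA1 markers and -0.93 over 6 CA2 and CA3 markers. Corn oil library 3 lay the same way to a smaller extent, at 0.41 for striatal, 0.23 for isocortical and -0.45 for dentate markers. Summed over the list, striatal markers ranged from 52.1 to 98.8 FPKM in corn oil and from 51.1 to 210.9 FPKM in BBP, and none of them was at 0 in any library. Medians of the 12 pan-neuronal markers stayed between -0.07 and 0.03, while the 12 oligodendrocyte markers stood at 0.56, 0.58 and -0.06 in BBP libraries 1 to 3. Hippocampal identity markers were present in all libraries, with the dentate granule gene C1ql2 at 9.89 to 26.6 FPKM, the CA1 gene Mpped1 at 44.9 to 51.4 FPKM and the CA2 and CA3 gene Bok at 18.5 to 36.6 FPKM. Mpped1 did not follow its list in BBP library 1, where it was at 50.2 FPKM, above all corn oil libraries. In that library the CA1 genes Fibcd1, Pou3f1, Man1a and Gpr161 lay below all corn oil libraries, and Wfs1 lay within their range. In bulk tissue, fewer cells of a type and less RNA per cell cannot be told apart.

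The gamma cluster held most of the summed FPKM of the clustered protocadherins. Its isoforms summed to 110.2, 106.6 and 108.8 FPKM in the corn oil libraries (here and throughout in the order 1 to 3) and 106.9, 115.0 and 113.8 FPKM in the BBP libraries. Gamma thus made up 68.0 to 70.3% of the summed FPKM of all members in every library, beta 16.8 to 17.7% and alpha 12.9 to 14.8%. The groups overlapped for gamma, with means of 108.5 ± 1.81 (SD, n = 3) and 111.9 ± 4.34 FPKM and a ratio of BBP to corn oil of 1.03.

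Beta genes summed to 26.6, 27.4 and 26.0 FPKM in corn oil and to 27.0, 28.8 and 28.4 FPKM in BBP. These groups overlapped as well, with means of 26.6 ± 0.713 and 28.1 ± 0.933 FPKM (SD, n = 3) and a ratio of 1.05. The alpha cluster summed to 20.5, 20.7 and 20.0 FPKM in corn oil and to 23.3, 24.8 and 21.6 FPKM in BBP, so its 3 BBP libraries all lay above its 3 corn oil libraries. The alpha means were 20.4 ± 0.325 and 23.2 ± 1.60 FPKM (SD, n = 3), a ratio of 1.14, and the ratio stayed between 1.10 and 1.18 when any 1 library was left out. Alpha sums did not overlap after rescaling to TPM either (61.9 to 67.4 in corn oil, 71.1 to 74.9 in BBP). Nor did they as CPM, counts scaled to library depth alone (125.6 to 130.7 and 133.0 to 166.4). As a share of the summed FPKM of all members, however, alpha overlapped between groups. BBP shares were 14.8, 14.7 and 13.2%, against corn oil shares of 13.0, 13.4 and 12.9%. The sum of all members itself separated narrowly, since no corn oil library exceeded 157.18 FPKM and no BBP library fell under 157.23 FPKM. The 12 variable alpha isoforms alone summed to 7.54, 8.41 and 14.9 FPKM in corn oil and 14.1, 9.92 and 9.35 in BBP, with overlap. Pcdhac2 alone had means of 8.74 and 11.1 FPKM, also with overlap between groups. Of single genes, 0 of the 14 alpha isoforms had groups without overlap, against 9.65% of all tested genes. No p is given for the cluster sums, because the isoforms were grouped with earlier results known. The plot of summed levels shows the 3 clusters side by side.

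**Figure D1:**
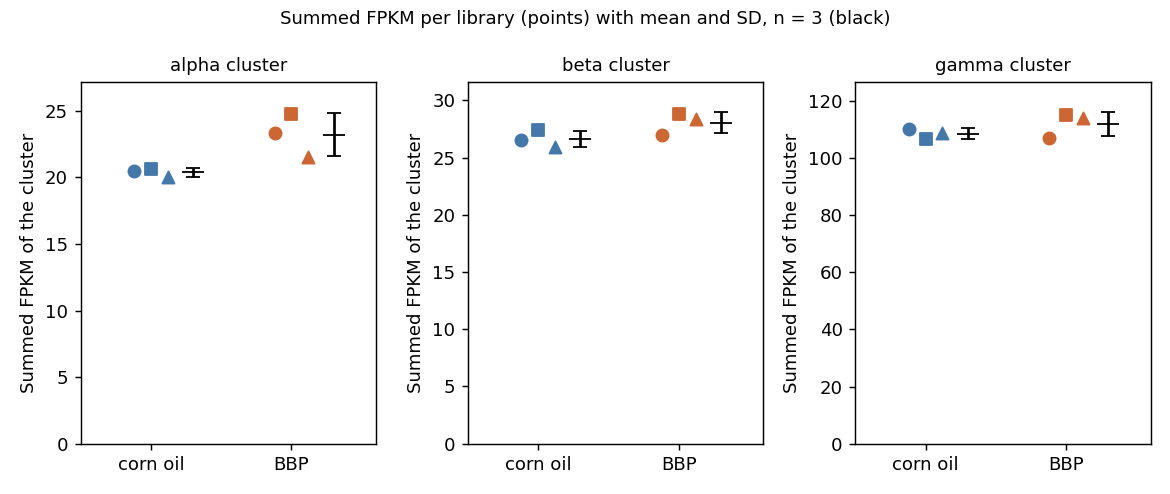
Summed FPKM of the alpha, beta and gamma clusters (y axes, each from 0 and on its own scale) in corn oil (blue) and BBP (orange) libraries, where circle, square and triangle are replicates 1, 2 and 3 and black bars are mean and SD of 3 libraries. Alpha sums lay between 20.0 and 20.7 in corn oil and between 21.6 and 24.8 in BBP, and the beta and gamma groups overlapped.

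Of the C-type isoforms, Pcdhgc5, Pcdhgc3 and Pcdhac2 had the highest mean levels of all members. Pcdhgc5, the last gamma isoform, stood at 16.2, 15.7 and 15.7 FPKM in corn oil and at 22.4, 15.1 and 15.6 FPKM in BBP. BBP library 1 was high and the other 5 libraries lay within 15.1 to 16.2 FPKM, so the groups overlapped. The log2 fold change of Pcdhgc5 was 0.18 ± 0.14 (SE) with an adjusted p of 0.953 in edgeR's test, and -0.01 without BBP library 1. In that library the striatal and isocortical markers were also high, as given above, and their part in the Pcdhgc5 value was not tested.

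Pcdhgc3 stood at 12.5, 15.9 and 14.2 FPKM in corn oil and 13.0, 18.3 and 15.6 in BBP, with a log2 fold change of 0.17 ± 0.16. Pcdhgc4, whose protein is needed for the survival of interneurons in development, was lower, at 3.65, 3.16 and 2.79 FPKM in corn oil and 3.72, 2.79 and 2.52 in BBP (log2 fold change -0.07 ± 0.17). For both genes the groups overlapped. Pcdhac2, the alpha isoform known for its expression in serotonergic neurons, where it supports axon tiling, measured 11.3, 10.1 and 4.82 FPKM in corn oil and 8.90, 14.0 and 10.3 in BBP. Its lowest value was in corn oil library 3, the groups overlapped, and the log2 fold change of 0.37 ± 0.31 was 0.08 without that library. Pcdhac1 was at 1.60, 2.17 and 0.314 FPKM in corn oil and 0.283, 0.835 and 1.95 in BBP, with 1 library of each group near 0.3 FPKM. Together the 5 C-type isoforms made up 24.4% (corn oil library 3) to 30.7% (BBP library 1) of the summed FPKM of all members.

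Variable alpha isoforms were low and varied most between libraries. Pcdha12, the highest of them by its mean, measured 0.905, 1.02 and 6.82 FPKM in corn oil and 4.91, 0.706 and 2.48 in BBP. Corn oil library 3 and BBP library 1 were high, so each group spanned low and high libraries, and the log2 fold change of -0.11 ± 0.85 ranged from -0.86 to 1.48 when 1 library was left out. The share of Pcdha12 in the summed alpha FPKM went from 2.85% in BBP library 2 to 34.1% in corn oil library 3. Pcdha9 had 0.414, 2.16 and 0.566 FPKM in corn oil and 0.463, 3.59 and 0.233 in BBP, being high in the library numbered 2 of each group. The log2 fold change of Pcdha9 was 0.52 ± 1.01, and it ranged from -1.61 to 1.62 without 1 library.

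Which variable alpha isoform led differed between libraries. It was Pcdha4 in corn oil library 1 (1.23 FPKM), Pcdha9 in corn oil library 2 and BBP library 2, and Pcdha12 in corn oil library 3, BBP library 1 and BBP library 3. Pcdha8 was the lowest alpha isoform by its mean, with 15, 17 and 16 counts in corn oil and 14, 40 and 52 in BBP. Its log2 fold change of 1.17 ± 0.55 rests on these few counts. With counts divided by 4, an alternative described below, Pcdha8 did not pass the filter on low counts. The stacked plot of alpha isoforms shows these exchanges within a nearly constant corn oil total.

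**Figure D2:**
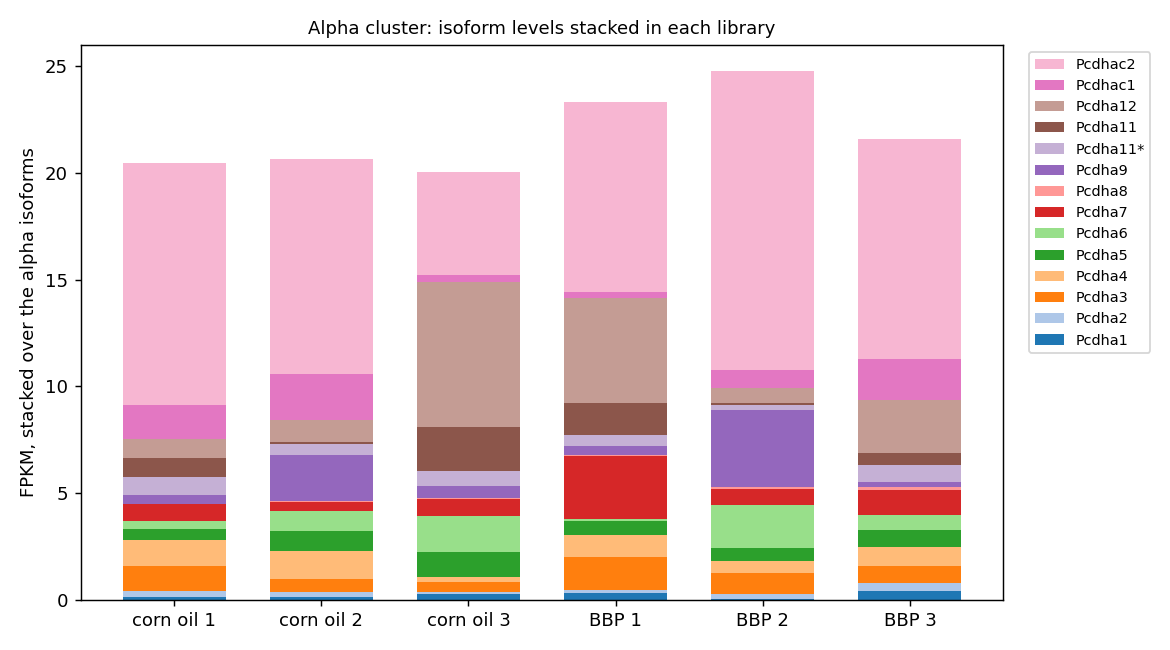
FPKM of the 14 alpha isoforms stacked in each library (x axis, library; y axis, FPKM; Pcdha11* is ENSMUSG00000007440). Pcdhac2 took 24.1 to 56.6% of the stack and Pcdha12 2.85 to 34.1%, while the corn oil totals stayed between 20.0 and 20.7.

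Pcdha7 was the only alpha isoform with an unadjusted p under 0.05. It measured 0.755, 0.445 and 0.820 FPKM in corn oil and 2.92, 0.741 and 1.18 in BBP, so BBP library 1 was high and the groups overlapped. The log2 fold change was 1.27 ± 0.47 (adjusted p = 0.953 in edgeR's test, unadjusted p = 0.0259), and it was 0.54 without BBP library 1. Pcdha5 and the gene labelled Pcdha11 with ID ENSMUSG00000007440 had the smallest p in the other direction, with log2 fold changes of -0.31 ± 0.27 and -0.41 ± 0.39.

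Several isoforms, picked after their values were seen, were high or low in the same libraries. Corn oil library 3 and BBP library 1, which also had the highest striatal and the lowest dentate markers, held the 2 highest values of Pcdha12, of Pcdha11 with ID ENSMUSG00000102206 (2.02 and 1.52 FPKM against 0.0864 to 0.877 in the other 4) and of Pcdhga9 (10.9 and 8.23 against 3.25 to 7.11). The same pair held the 2 lowest values of Pcdhac1 and of Pcdhac2. They belong to different groups, and the part of regional markers in these isoform values was not tested.

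Of the 22 gamma genes, 4 variable isoforms had an unadjusted p under 0.05 in edgeR's test (18.2%, against 3.35% of all genes). Of these, 2 were higher and 2 lower in BBP, and 0 passed the adjusted threshold. Pcdhga2 measured 5.28, 4.01 and 5.11 FPKM in corn oil and 9.11, 5.59 and 7.05 in BBP. All 3 BBP libraries lay above all corn oil libraries, with a log2 fold change of 0.61 ± 0.17 (SE, 95% interval 0.22 to 1.00). Its unadjusted p of 0.00725 was the smallest among the members, its adjusted p was 0.953 in edgeR's test and 0.563 in DESeq2, and the log2 fold change stayed between 0.43 and 0.73 when 1 library was left out. Pcdhga12 measured 3.14, 3.69 and 3.84 FPKM in corn oil and 3.93, 4.14 and 4.99 in BBP, again without overlap, with a log2 fold change of 0.31 ± 0.12.

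Pcdhga6 lay on the other side, at 6.03, 5.21 and 4.47 FPKM in corn oil and 4.35, 4.02 and 3.71 in BBP. Pcdhgb2 did so as well, at 3.56, 3.34 and 2.93 FPKM in corn oil and 2.63, 2.64 and 2.52 in BBP. Neither overlapped between groups, and the log2 fold changes were -0.36 ± 0.14 and -0.31 ± 0.12, both with an adjusted p of 0.953 in edgeR's test. Leaving out 1 library kept Pcdhga6 between -0.46 and -0.24 and Pcdhgb2 between -0.39 and -0.25. Pcdhga3, Pcdhgb1 and Pcdhga4, which lie between Pcdhga2 and Pcdhgb2 in the cluster, had log2 fold changes of 0.08 ± 0.28, -0.21 ± 0.31 and 0.0003 ± 0.46.

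Pcdhga11 was the most abundant variable gamma isoform by its mean, at 10.6, 7.41 and 5.87 FPKM in corn oil and 6.71, 10.4 and 7.95 in BBP, with overlapping groups. Pcdhga11 led the A type in corn oil libraries 1 and 2 and BBP libraries 2 and 3, while Pcdhga9 led in corn oil library 3 and Pcdhga2 in BBP library 1. Pcdhgb5 had the lowest mean of the gamma genes, at 0.276, 1.02 and 1.20 FPKM in corn oil and 1.06, 1.09 and 1.77 in BBP. Pcdhgb4, picked for its spread, had 1.10, 4.33 and 3.57 FPKM in corn oil and 0.336, 0.277 and 4.32 in BBP, a 15.7-fold range over the 6 libraries with a log2 fold change of -0.88 ± 0.97. The plot of isoform levels gives each value.

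**Figure D3:**
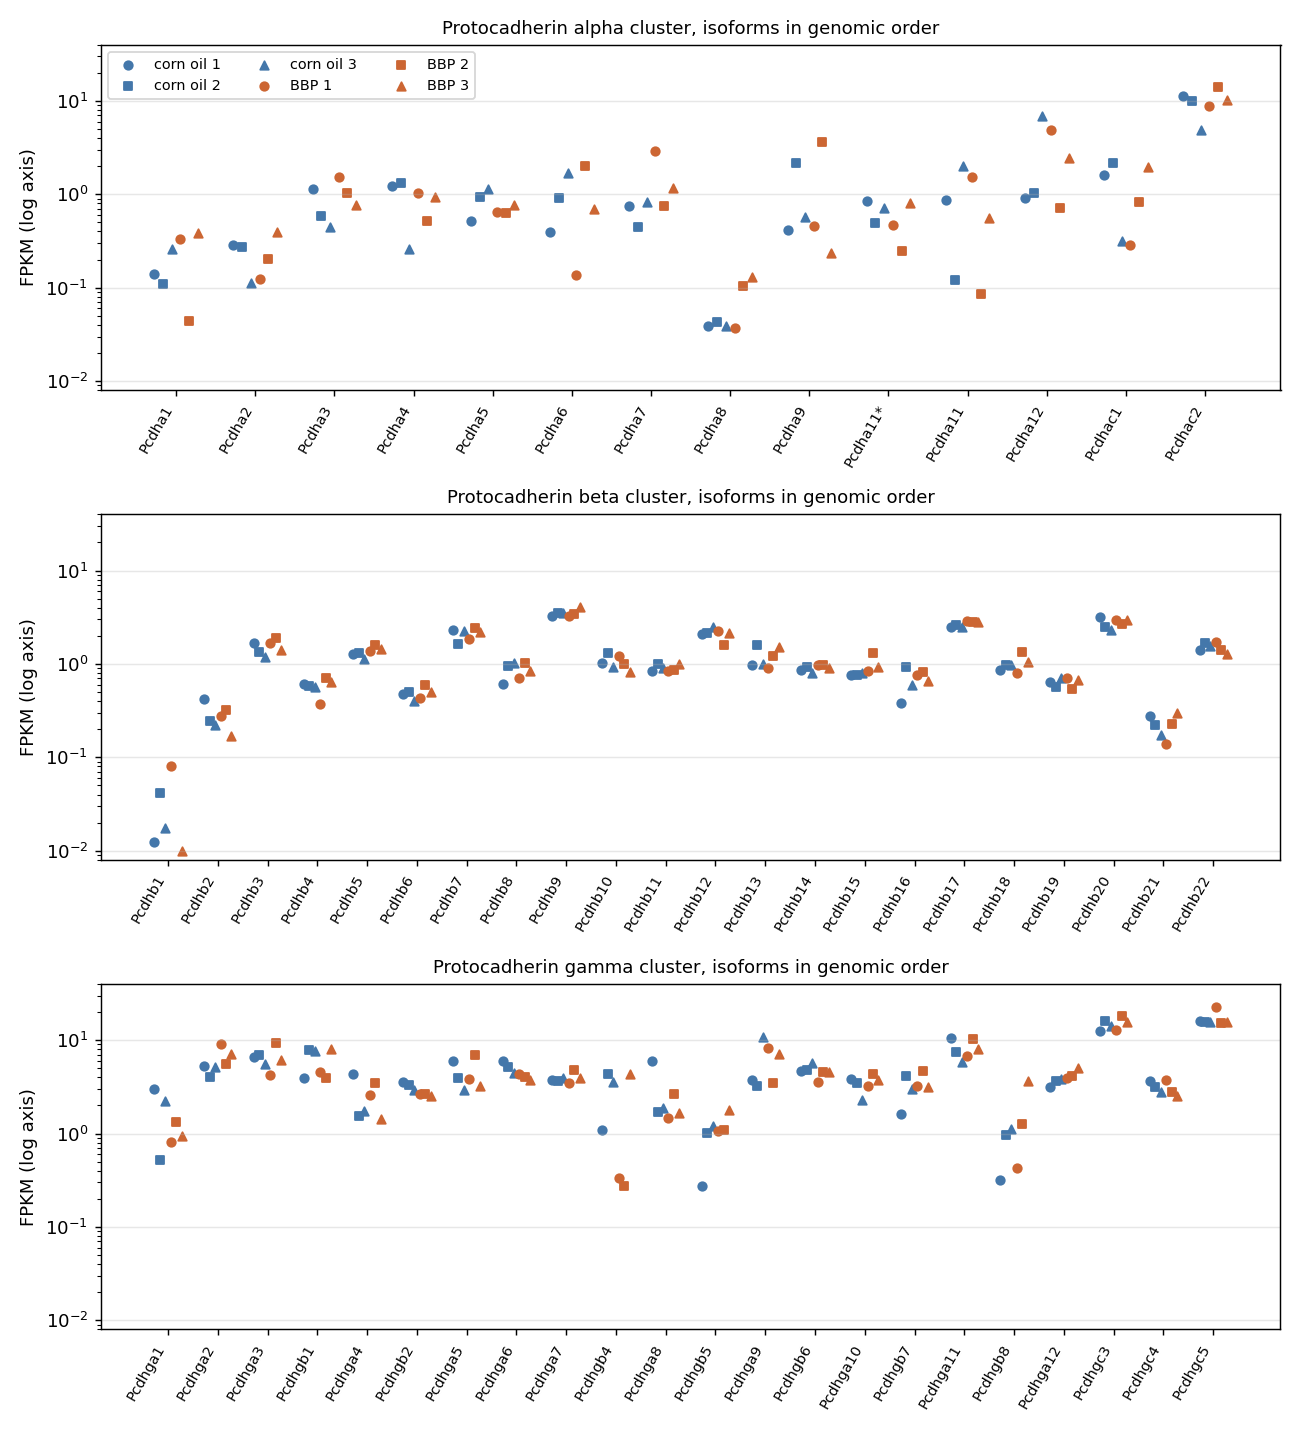
FPKM of each member (y axis, logarithmic) in genomic order along the alpha, beta and gamma clusters (x axis), with corn oil libraries in blue and BBP libraries in orange, and circle, square and triangle for replicates 1, 2 and 3. Pcdha11* is ENSMUSG00000007440, and Pcdhb1 in BBP library 2, listed at 0, has no point. The median ratio of the highest to the lowest value was 1.56 over the 21 tested beta genes, 2.16 over gamma and 5.79 over alpha isoforms.

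The beta cluster had the smallest median spread between libraries. Pcdhb9 was the highest beta gene in every library, at 3.28, 3.52 and 3.48 FPKM in corn oil and 3.26, 3.46 and 4.05 in BBP. Second place went to Pcdhb20 (2.29 to 3.20 FPKM over the 6 libraries) or Pcdhb17. Pcdhb17 measured 2.50, 2.62 and 2.51 FPKM in corn oil and 2.87, 2.78 and 2.81 in BBP, without overlap, and its log2 fold change of 0.17 ± 0.11 had an unadjusted p of 0.145. Pcdhb1, at the start of the cluster, was the lowest, with 3, 8 and 4 counts in corn oil and 15, 0 and 2 in BBP, and was the 1 member that did not pass the filter on low counts.

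Pcdhb5 and Pcdhb15 had the smallest p among beta genes with higher means in BBP, with log2 fold changes of 0.27 ± 0.17 and 0.44 ± 0.24, and neither overlapped between groups. BBP library 2 was high for Pcdhb15, at 1.32 FPKM against 0.763 to 0.936 in the other 5. On the lower side Pcdhb12 had -0.15 ± 0.16 and Pcdhb2 had -0.19 ± 0.40. A count of 0 beta genes had an unadjusted p under 0.05, and 20 of 21 had a 95% interval of the log2 fold change that lay within 2-fold in either direction.

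Across the 57 members tested, 0 were called by edgeR, 0 by DESeq2 and 0 by limma on log2(FPKM + 1), where the background over all genes was 0%, 0.0196% and 0%. At an unadjusted p under 0.05 there were 5 members (8.77%, against 3.35% of all genes). Pcdha7, Pcdhga2 and Pcdhga12 were those with higher values in BBP, where 1.98% of all genes were, and Pcdhga6 and Pcdhgb2 those with lower values, where 1.37% of all genes were. Limma had 3 of 38 members at an unadjusted p under 0.05, against 2.98% of all genes. FPKM values of the 2 groups did not overlap for 8 members (14.0%, against 9.65% of all genes). Pcdhb5, Pcdhb15, Pcdhb17, Pcdhga2 and Pcdhga12 were higher in all 3 BBP libraries, as were 4.4% of all genes, and Pcdhgb2, Pcdhga6 and Pcdhgb6 were lower, as were 5.25%.

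Log2 fold changes were positive for 35 members and negative for 22, which is 61.4% positive against 52.4% of all genes. By cluster the split was 7 to 7 for alpha, 14 to 7 for beta and 14 to 8 for gamma, with median log2 fold changes of 0.05, 0.09 and 0.09, beside 0.01 over all tested genes. Without corn oil library 3 the alpha median was 0.31, and without BBP library 1 it was 0.35. The 95% interval lay within 2-fold for 69.9% of all genes, for 20 of 21 beta, 13 of 22 gamma and 1 of 14 alpha genes. Differences of 2-fold were therefore not excluded by these libraries for most alpha isoforms.

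**Figure D4:**
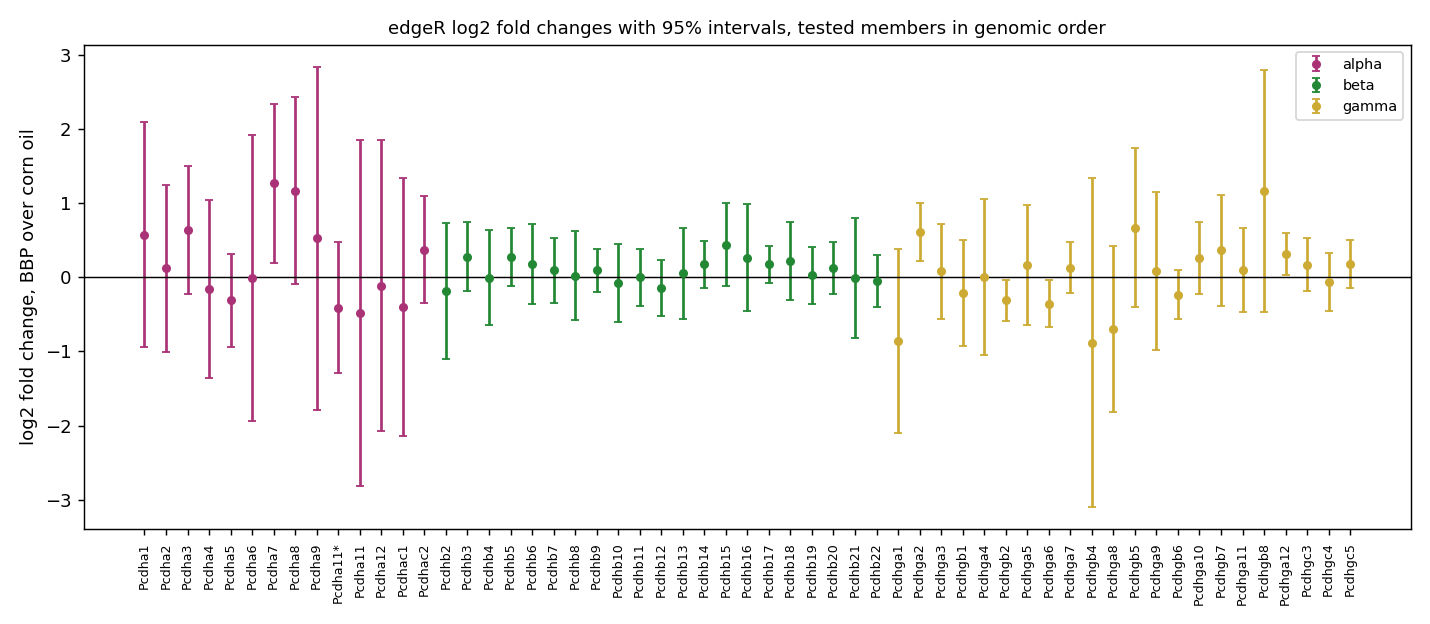
Log2 fold change of BBP over corn oil (y axis) of the 57 tested members in genomic order (x axis), with 95% intervals from edgeR's quasi-likelihood fit on 3 libraries per group. Pcdha11* is ENSMUSG00000007440. Intervals were wide for alpha isoforms and Pcdhgb4 and narrow for most beta genes, and 0 members passed the adjusted threshold.

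The clusters differed in how much their isoforms varied between libraries of 1 group. The within-group SD of log2 CPM had a median of 0.88 over the alpha genes (0.41 to 2.04), 0.44 over gamma (0.12 to 1.70) and 0.26 over beta (0.05 to 0.49). Over all tested genes the median was 0.22, and over the 17016 other tested genes within the members' range of mean FPKM it was 0.24. That range was wide (0.066 to 16.8 FPKM) and did not match the level of each cluster. The median of the mean FPKM was 1.91 for these genes, against 0.90 for alpha, 0.95 for beta and 3.94 for gamma. Taken over all 6 libraries, the highest FPKM was a median of 5.79 times the lowest for alpha genes, 2.16 times for gamma genes and 1.56 times for beta genes, against 1.53 times for all genes. Pcdha11 with ID ENSMUSG00000102206, Pcdha9, Pcdhgb4 and Pcdha6 had the widest spread, with SDs of 2.04, 1.73, 1.70 and 1.58, and Pcdhb17 had the narrowest, at 0.05.

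In the alpha and gamma clusters the spread of single isoforms did not carry over in full to the cluster totals. Had the isoforms of the alpha cluster deviated from their group means without relation to each other, their SDs would have added up to an SD of the sum of 5.22 FPKM in corn oil and 4.34 in BBP, where the measured SDs were 0.325 and 1.60. For gamma the corresponding values were 7.23 and 8.03 FPKM against measured SDs of 1.81 and 4.34. For beta they were 0.920 and 0.949 against 0.713 and 0.933, which are close to each other. Parts of the clusters did not follow their totals. For the B-type gamma isoforms the values were 3.21 and 3.79 FPKM against larger measured SDs of 6.07 and 6.48. The A type had 6.24 and 5.11 against 8.68 and 4.91, and the variable alpha isoforms 3.79 and 3.34 against 4.02 and 2.60. Within gamma, the A-type isoforms summed to 62.4, 45.4 and 50.9 FPKM in corn oil and the B-type isoforms to 15.4, 26.5 and 25.2, so the library highest in A type was lowest in B type. In BBP the A-type sums were 51.9, 60.4 and 51.9 FPKM and the B-type sums 15.9, 18.4 and 28.1, where the library highest in A type was not the lowest in B type. Shared constant exons are a property of the alpha and gamma clusters, and the part that the division of their reads has in these values was not tested.

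**Figure D5:**
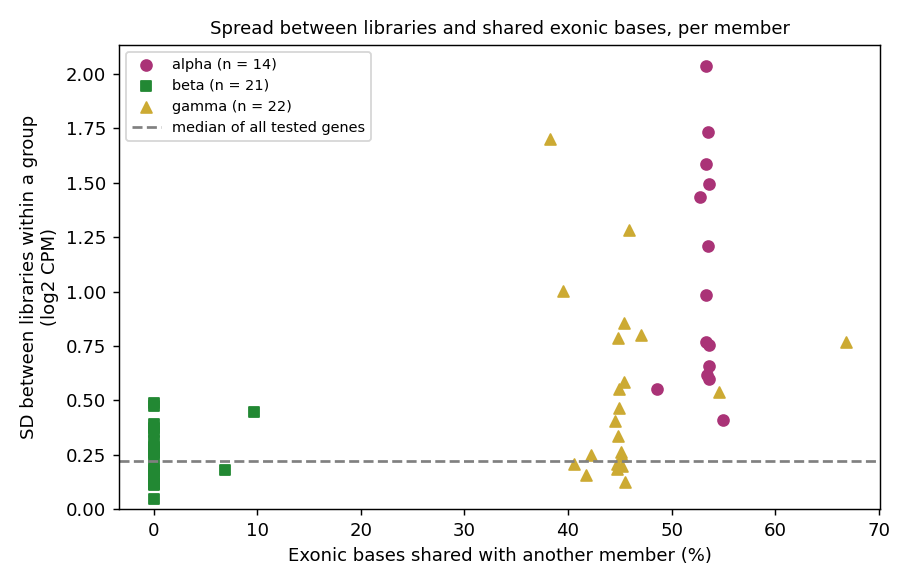
Within-group SD of log2 CPM (y axis, from 0) against the percentage of a member's exonic bases that another member shares (x axis), for 14 alpha, 21 beta and 22 gamma genes, with the median of all tested genes dashed (0.22). Beta genes sit at or near 0% with SDs up to 0.49, and alpha genes near 53.4% with SDs from 0.41 to 2.04. Gamma genes lie at 38.3 to 66.8% with SDs from 0.12 to 1.70, and the gene with the lowest gamma share, Pcdhgb4, has the highest gamma SD.

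Genes tied to protocadherin biology by a list were examined in the same fit, and 0 of them passed the adjusted threshold. Of 23 regulators of promoter choice and chromatin, 19 had positive and 4 negative log2 fold changes, with a median of 0.07, and 1 had an unadjusted p under 0.05. That gene was Nipbl, the cohesin loader, at 3.66, 3.38 and 3.52 FPKM in corn oil and 4.00, 3.68 and 4.16 in BBP (log2 fold change 0.19 ± 0.08). Dnmt1, the maintenance DNA methyltransferase, had 0.18 ± 0.08, likewise without overlap between groups. Groups did not overlap for 3 of the 23 regulators. Over all tested genes 52.4% were positive, 3.35% had an unadjusted p under 0.05 and 9.65% did not overlap. Relative to the corn oil mean, regulator medians were 0.03, 0.01 and -0.02 in corn oil and 0.01, 0.02 and 0.10 in BBP, highest in BBP library 3. Of 19 genes for cleavage and intracellular partners, 10 were positive and 9 negative and 0 had an unadjusted p under 0.05. The smallest p there were those of the receptor kinase gene Ret (0.52 ± 0.24) and Cyfip2, a part of the WAVE actin-regulating complex (0.23 ± 0.12).

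Of 10 tested non-clustered protocadherins, 4 were positive and 6 negative, with a median of -0.12. Pcdh9 was the 1 with an unadjusted p under 0.05, at 10.9, 10.5 and 10.3 FPKM in corn oil and 12.9, 11.9 and 11.3 in BBP (0.21 ± 0.09). Pcdh19, an adhesion gene linked to epilepsy, had -0.29 ± 0.18 with overlapping groups. Among 29 tested neighbours of the locus within 500 kb of the members, 11 were positive and 18 negative and 0 had an unadjusted p under 0.05, with a median of -0.04. Arap3 (0.33 ± 0.15) and Slc25a2 (1.19 ± 0.71, at no more than 0.276 FPKM) had the smallest p among them. For both lists the background is that of all tested genes, of which 52.4% were positive and 3.35% had an unadjusted p under 0.05.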

How the data were processed

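Polyadenylated RNA of 6 hippocampus libraries was sequenced as paired ends from strand-marking libraries with molecular identifiers, per the labels' protocols. Per the submitters' processing notes, the build was mm10 and the tools were StringTie 2.1.6, HISAT2 2.2.1, cutadapt 1.9, UMI-tools, edgeR and DESeq2, whose roles are not given. Per the file headers, the deposited table holds estimated counts and FPKM per gene and library. The deposited estimated counts were whole numbers, so rounding altered none, and they were used as they are. A count of 4 was more frequent among genes than 3 or 5 in all 6 libraries, from which about 4 counts per fragment were assumed in 1 alternative. Precision is limited by 3 libraries per group and, for low genes, by counts.

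All genes were fitted with edgeR 4.0.16 in R 4.3.3 (filterByExpr, TMM, quasi-likelihood F test with a treatment term alone, Benjamini-Hochberg adjustment over all 20428 tested genes, threshold 0.05). Dividing the size of the log2 fold change by the root of F gave its standard error. Spread is on log2 CPM with a prior count of 2. Alternatives were DESeq2 1.42.0, limma 3.58.1 on log2(FPKM + 1) where the mean FPKM reached 1, a pseudocount of 0.1, no filter, a replicate block, counts divided by 4, and leaving out each library. The scripts were tested on simulated data.

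Genes were named by a rule: all C-type isoforms, in each cluster the 3 highest and the lowest by mean FPKM and the 2 with the smallest p in each direction, the 2 with the smallest p of each pathway list, and the highest gene of each cell type list. An item that this rule selects is not reported here. The members and lists were chosen with earlier results of these data known. Figures were drawn with matplotlib 3.10.9.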

Additional observations from a re-analysis of the deposited data

How the results depend on the processing

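Under the 14 settings tried, 0 members were called, and all 325 values of the 24 members named by the rule had an adjusted p above 0.05. A member that did not pass the filter of a setting had no value there, as Pcdha8 with counts divided by 4. Over all genes, the edgeR count of 0 became 4 with DESeq2 and ranged from 0 to 3 without 1 library (1 without corn oil library 2 and 3 without BBP library 1). Members at an unadjusted p under 0.05 numbered 5 in the edgeR fit, 3 with limma, and 2 to 6 without 1 library. Without 1 library, the median log2 fold change ranged from 0.054 to 0.35 for alpha (0.31 without corn oil library 3 and 0.35 without BBP library 1), from 0.01 to 0.18 for beta and from -0.05 to 0.16 for gamma, and the ratio of summed FPKM from 1.10 to 1.18, 1.04 to 1.07 and 1.02 to 1.05. Of the 24 members, 8 changed sign under an alternative: Pcdhac1 (-1.21 to 0.11 without 1 library), Pcdhgc3 (-0.0028 to 0.30), Pcdhgc4 (-0.23 to 0.066), Pcdhgc5 (-0.010 to 0.28), Pcdhb2 (-0.42 to 0.15), Pcdhga11 (-0.14 to 0.36), Pcdha12 (-0.86 to 1.48) and Pcdha9 (-1.61 to 1.62). Pcdha12 was 0.073 with limma at a pseudocount of 1, with and without the filter, and 0.14 at 0.1. Pcdha9 was -0.055 with limma at 0.1. The cause was not tested.

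The replicate numbers are shared between the groups, but same-numbered libraries correlated by -0.08, 0.08 and -0.10 in their deviations from the group means, so they were not treated as pairs. Of the 6 libraries, only corn oil library 2 and BBP library 2 correlated best with their own number. With the replicate number as a block, 0 genes and 0 members were called, 8 members had an unadjusted p under 0.05, and the median log2 fold changes were 0.06 for alpha, 0.09 for beta and 0.11 for gamma. Pcdha12 was then 0.088 and Pcdha9 -0.064.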

Other observations

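The cell types beside which the protocadherins were read had these marker values, with 0 genes called by edgeR in any list. Among pan-neuronal markers, 7 of 12 had a positive log2 fold change, and the kinase gene Camk2a had means of 360.7 ± 27.6 FPKM for corn oil and 392.7 ± 85.7 for BBP (SD, n = 3; corn oil first below). Dentate granule markers were split 4 to 4 and CA1 markers 4 to 2, while all 6 CA2 and CA3 markers were negative, with Bok at 33.0 ± 5.02 and 22.9 ± 7.20 FPKM. Striatal markers were positive for 12 of 13 genes, and the opioid precursor gene Penk stood at 18.6, 12.4 and 42.5 FPKM in corn oil and at 72.1, 17.4 and 14.5 in BBP. Isocortical markers were positive for 7 of 8 genes, with Lamp5 between 14.6 and 20.7 FPKM everywhere but in BBP library 1, where it was 64.5. Thalamic markers were positive for 3 of 4 tested genes, and Prkcd averaged 3.56 ± 0.803 and 3.70 ± 0.072 FPKM.

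Oligodendrocyte markers were positive for 12 of 12 genes, of which 2 had an unadjusted p under 0.05, and the myelin gene Mbp averaged 213.4 ± 34.9 and 288.2 ± 68.1 FPKM. Astrocyte markers were positive for 9 of 10 genes (glutamate transporter gene Slc1a2, 106.0 ± 3.59 and 119.6 ± 10.9 FPKM). Microglial markers were positive for 8 of 10, and endothelial and mural markers for 8 of 9 (Cldn5, 13.6 ± 1.85 and 14.2 ± 5.81). The endothelial and mural list and the striatal list also had 2 genes each at an unadjusted p under 0.05 in edgeR's test. The isocortical, astrocyte, CA2 and CA3, and choroid plexus lists had 1 each. Of the 9 endothelial and mural genes, 4 did not overlap between groups, against 0 of the 12 oligodendrocyte genes. Choroid plexus markers were negative for 10 of 10 genes, and the transthyretin gene Ttr stood at 81.4, 115.3 and 365.8 FPKM in corn oil and 51.5, 44.5 and 58.5 in BBP, with a log2 fold change of -1.84 ± 0.49 (SE) and an adjusted p of 0.953 in edgeR's test. Relative to the corn oil mean, choroid plexus medians were -0.61, -0.13 and 0.67 in corn oil and -1.07, -0.12 and -0.47 in BBP. Oligodendrocyte medians were -0.15, 0.29 and -0.13 in corn oil and 0.56, 0.58 and -0.06 in BBP. For both lists the groups overlapped in these medians. Over all tested genes 52.4% had a positive log2 fold change, 3.35% had an unadjusted p under 0.05 and 9.65% did not overlap between groups. The part of the marker lists in the protocadherin values was not tested.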
